A study of Mus musculus with 12 samples.

Results

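Sorted microglia were examined here for the RNA of 8 genes, the receptors Trem2, Trem3, Treml2, Cd300a, Cd300lb, Cd300ld and Cd300lf and the signalling adaptor Tyrobp. They were taken by symbol from a table of raw read counts for 24328 gene symbols, whatever their level. All 8 passed the filter on low counts that left 12695 genes for testing. RNA came from microglia of the brain, purified by flow cytometry, in wild-type BALB/c mice. Allogeneic and syngeneic recipients were lethally irradiated, and each was given 5000000 bone marrow cells with 300000 T cells. They were perfused on day 14, the time of peak graft-versus-host disease (GvHD, in which donor T cells attack host tissue). The labels do not name the donor strains. Control mice had no transplant, and no irradiation is recorded for them, so their difference from syngeneic mice covers irradiation and transplantation together. Each group held 4 mice with 1 library a mouse.

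TREM and CD300 proteins are small surface receptors of the immunoglobulin superfamily on myeloid cells. The activating ones have almost no tail inside the cell, so they signal through a partner such as Tyrobp (DAP12), whose ITAM motif recruits the kinase Syk. The inhibitory ones, Cd300a and Cd300lf among these genes, carry ITIM motifs that recruit phosphatases. In brain, Trem2 on microglia senses lipids, lipoproteins and cell debris, and the loss of human TREM2 or TYROBP causes Nasu-Hakola disease, with dementia and bone cysts.

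Allogeneic libraries held 35559202 to 42641198 reads in all, syngeneic libraries 36422729 to 46126118 and control libraries 32652208 to 45439607. Levels below are CPM (a gene's reads scaled to a common library size, with TMM factors), and a gene without a read in any of 4 libraries could still reach 0.0217 CPM in allogeneic and 0.0179 CPM in syngeneic or control mice (counting error only). All 12 homeostatic microglia markers examined had reads in each group; their summed level was 40850 to 42290 CPM in allogeneic, 57090 to 60200 CPM in syngeneic and 59170 to 68190 CPM in control libraries. Fold changes are log2 values with their SE from edgeR's quasi-likelihood test, and "rose" or "fell" is used for a Benjamini-Hochberg adjusted p under 0.05 over all tested genes. P2ry12 led the sum of microglia markers in each group. Without it the sum was 31200 to 33500 CPM in allogeneic, 39900 to 42000 in syngeneic and 47800 to 54400 in control libraries. Of the 12, 0 rose and 9 fell in allogeneic against syngeneic mice (16.5% of all genes called). In syngeneic against control mice 6 rose and 5 fell (52.1%), and in allogeneic against control mice 3 rose and 9 fell (57.3%). In these bulk samples, fewer cells of a type and less RNA per cell cannot be told apart.

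The adaptor and its best known partner receptor moved apart. Tyrobp rose in syngeneic against control mice and again in allogeneic against syngeneic mice, whereas Trem2 fell in both transplanted groups against control. Between the ITIM receptors, Cd300a fell after either transplant, while Cd300lf rose in allogeneic mice, to a level 6.14-fold higher than in syngeneic mice and 4.23-fold higher than in control mice. Treml2 also rose in allogeneic mice, to a smaller extent. Trem3 and Cd300ld had no read in any control library and were detected at low levels after either transplant, and Cd300lb passed the test in no comparison.

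Of the 8 genes, 3 rose and 0 fell in allogeneic against syngeneic mice, where 16.5% of all tested genes were called, 10.1% higher and 6.38% lower. In syngeneic against control mice 3 rose and 3 fell, where 52.1% of all genes were called, 26.4% higher and 25.6% lower. In allogeneic against control mice 5 rose and 2 fell, where 57.3% of all genes were called, 28.2% higher and 29.1% lower. The 4 libraries of one group lay wholly above or below those of the other for 2 of the 8 genes in allogeneic against syngeneic mice (20.7% of all genes), for 5 in syngeneic against control mice (50.0%) and for 7 in allogeneic against control mice (53.8%). The calls against control include Trem3 and Cd300ld. The counts without overlap include Cd300ld in both comparisons with control and Trem3 in allogeneic against control mice. These genes passed the filter only through libraries of transplanted mice and so had to differ from control. Their test against control is therefore given no weight, and without them 1 rose and 3 fell in syngeneic and 3 rose and 2 fell in allogeneic against control mice. The median log2 fold change of the 8 genes was 0.42, -0.35 and 1.13 in these comparisons, in that order. The median of all tested genes was -0.01, -0.03 and -0.07. The medians of the 8 genes against control still include Trem3 and Cd300ld and are given no weight. Those genes stood at 7.51 and 8.5 in syngeneic and at 9.18 and 8.3 in allogeneic against control mice.

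The promoters of 3 of the receptors are shown because these genes carry the contrast, Trem2 and Cd300a with a fall after transplant and Cd300lf with a rise in allogeneic mice. RefSeq (GRCm38.p6) gave a promoter for 5 of the 8 genes, and each sequence below holds the 250 bases before the annotated start, on the gene's strand. Capitals mark a match to GAGGAA, a core of the motif of the myeloid factor PU.1, here on the opposite strand, where it reads TTCCTC. The 3 windows lie at chr17:48346151-48346400 (plus strand) for Trem2, chr11:114889791-114890040 (plus strand) for Cd300a and chr11:115133993-115134242 (minus strand) for Cd300lf.
Trem2: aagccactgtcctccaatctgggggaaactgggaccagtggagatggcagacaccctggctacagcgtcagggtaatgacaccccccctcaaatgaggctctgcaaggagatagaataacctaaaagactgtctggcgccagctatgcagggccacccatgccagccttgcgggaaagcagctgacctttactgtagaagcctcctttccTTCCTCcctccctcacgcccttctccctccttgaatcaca
Cd300a: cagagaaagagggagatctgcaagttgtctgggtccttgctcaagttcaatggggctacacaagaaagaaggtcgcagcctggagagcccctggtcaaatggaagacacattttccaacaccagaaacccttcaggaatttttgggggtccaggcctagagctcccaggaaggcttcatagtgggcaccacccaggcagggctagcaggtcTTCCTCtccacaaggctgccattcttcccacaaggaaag
Cd300lf: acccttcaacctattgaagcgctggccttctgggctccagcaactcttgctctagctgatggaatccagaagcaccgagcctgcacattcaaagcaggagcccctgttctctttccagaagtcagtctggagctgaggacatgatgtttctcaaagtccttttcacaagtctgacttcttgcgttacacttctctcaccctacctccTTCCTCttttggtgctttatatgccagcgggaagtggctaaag
The match begins 40 bases before the start in Trem2, 39 bases in Cd300a and 43 bases in Cd300lf. On either strand, GAGGAA was present in 4 of the 5 promoters, the 3 shown and that of Cd300ld, where it begins 143 bases before the start on the gene's own strand, and in 23.3% of 32851 RefSeq promoters of that length. The interferon-stimulated response element, searched on both strands as a pair of GAAA half-sites with a gap of 2 bases, was in 0 of the 5 promoters and in 2.98% of all of them. For TTCNNNGAA, the gamma-activated site, the match was in 0 of 5 and in 7.02% of all. Trem2 and Cd300a, which fell, and Cd300lf, which rose in allogeneic mice, therefore hold the same match at nearly the same place, and a match in a window is a description of letters, not of binding.

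Tyrobp, the ITAM adaptor, had 2395, 2535, 2504 and 2435 CPM in allogeneic replicates 1 to 4. It had 1713, 1707, 1739 and 1530 CPM in syngeneic mice and 993, 803, 901 and 859 CPM in control mice. The 3 groups did not overlap anywhere, and the mean stood at 2467 ± 63.8 CPM in allogeneic, 1672 ± 95.9 CPM in syngeneic and 888.8 ± 80 CPM in control mice (SD, n = 4 each). Tyrobp rose by 0.56 ± 0.07 in allogeneic against syngeneic mice (1.48-fold, edgeR adjusted p = 3.87e-06). The rise was 0.91 ± 0.07 in syngeneic against control mice (edgeR adjusted p = 1.93e-09) and 1.47 ± 0.07 in allogeneic against control mice (2.78-fold, edgeR adjusted p = 1.29e-12). Its transcript of 564 bases is the shortest of the 8, and short transcripts as a class moved up in allogeneic against syngeneic mice (Spearman rho of log2 fold change with length -0.21 across 12615 genes, which are not independent replicates). With an offset for the GC content and length of transcripts, chosen after seeing the data, the Tyrobp rise was 0.18 in allogeneic against syngeneic mice (edgeR adjusted p = 0.0339) and 0.92 in allogeneic against control mice.

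Trem2, the receptor for lipids and apolipoproteins that signals through Tyrobp, had 702, 747, 759 and 781 CPM in allogeneic mice. The level was 851, 748, 875 and 906 CPM in syngeneic mice and 2281, 2090, 2034 and 1829 CPM in control mice. Every library of a transplanted mouse lay below every control library, while allogeneic and syngeneic libraries overlapped because syngeneic replicate 2 reached down to the allogeneic range. Trem2 fell in syngeneic against control mice (log2 fold change -1.28 ± 0.07, 2.44-fold lower, edgeR adjusted p = 1.2e-10). It fell likewise in allogeneic against control mice (-1.46 ± 0.07, 2.75-fold lower, edgeR adjusted p = 6.62e-12). Between allogeneic and syngeneic mice the log2 fold change was -0.18 ± 0.07 and missed the threshold (95% interval -0.33 to -0.03, edgeR adjusted p = 0.109). It passed the threshold without syngeneic replicate 2 (-0.23, edgeR adjusted p = 0.0411), with the offset for GC content and length (-0.36, edgeR adjusted p = 0.000488), in a fit of the compared groups alone (-0.19, edgeR adjusted p = 0.0454) and when library totals replaced TMM (-0.38, edgeR adjusted p = 0.000467, where the median of all genes was -0.22).

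**Figure D1:**
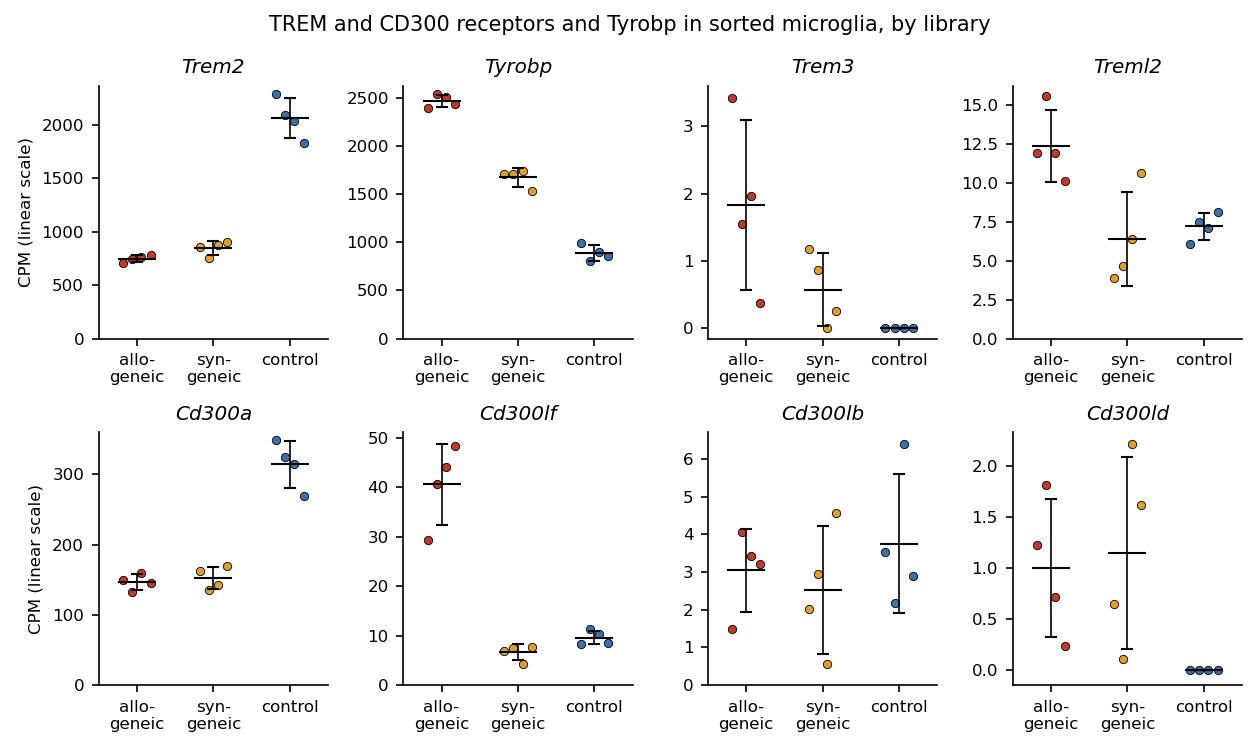
CPM of the 8 genes in each library (points, replicates 1 to 4 from left to right within a group) with the group mean and SD (bars, n = 4), on linear axes that differ between panels. Trem2 and Cd300a are highest in control mice, Tyrobp and Cd300lf are highest in allogeneic mice, and the control points of Trem3 and Cd300ld all lie at 0.

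Because both genes were counted in the same libraries, their ratio does not depend on library scaling. It can still depend on the GC content and length of transcripts, with Tyrobp at 564 and Trem2 at 1088 bases. In allogeneic against syngeneic mice the offset for these made the Tyrobp rise smaller and the Trem2 difference larger. The ratios were not computed with that offset. The ratio of Trem2 reads to Tyrobp reads was 0.293, 0.295, 0.303 and 0.32 in allogeneic mice. It was 0.497, 0.438, 0.503 and 0.592 in syngeneic mice, and 2.3, 2.6, 2.26 and 2.13 in control mice. Receptor reads thus outnumbered adaptor reads in all 4 control libraries and were fewer in all 8 libraries of transplanted mice, with no overlap between any groups. The mean log2 ratio was lower by 0.74 in allogeneic than in syngeneic mice (-1.72 ± 0.06 against -0.99 ± 0.18, SD, n = 4 each, a 1.67-fold difference). The two-sided exact permutation test gave p = 0.0286, the smallest that 4 against 4 allows, and 0.0381 after Benjamini-Hochberg adjustment over 12 ratio tests. The 12 include the tests of Cd300ld to Cd300lf against control, which are not usable since control libraries held 0 Cd300ld reads. Their inclusion makes this adjusted value somewhat smaller. The log2 difference was -2.2 in syngeneic against control mice and -2.94 in allogeneic against control mice (control mean 1.21 ± 0.12, n = 4), each with exact permutation p = 0.0286 and adjusted p = 0.0381.

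Trem3, an activating receptor that pairs with Tyrobp in mouse, was rare. It had 3.43, 1.55, 1.97 and 0.383 CPM in allogeneic mice, against 1.18, 0.861, 0 and 0.253 CPM in syngeneic mice. Control libraries held 0 reads. One syngeneic library had none either, so the syngeneic and control groups touch at 0, while the 4 allogeneic libraries lay above all control libraries. With the reads of a group pooled, Trem3 was at least 101-fold higher in allogeneic and at least 34.4-fold higher in syngeneic than in control mice. The floor was 3 reads over the control group. These bounds allow for counting error in the control group only. They leave out the counting error of the transplanted group and the spread between mice. Between allogeneic and syngeneic mice the groups overlapped, with a log2 fold change of 1.67 ± 1.27 (95% interval -1.05 to 4.39, edgeR adjusted p = 0.45).

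Cd300lb, an activating receptor that signals through Tyrobp, had 1.48, 4.06, 3.43 and 3.21 CPM in allogeneic mice, 2.01, 2.95, 0.547 and 4.57 CPM in syngeneic mice and 3.52, 2.18, 6.41 and 2.9 CPM in control mice. All 3 groups overlapped. The log2 fold change was 0.27 ± 0.57 in allogeneic against syngeneic mice (95% interval -0.93 to 1.48, edgeR adjusted p = 0.822). It was -0.57 ± 0.57 in syngeneic against control mice (-1.78 to 0.63, edgeR adjusted p = 0.43) and -0.30 ± 0.57 in allogeneic against control mice (-1.5 to 0.9, edgeR adjusted p = 0.677). These intervals reach past a 2-fold change on at least one side, so a change of that size could have been missed.

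Cd300ld, an activating receptor that uses the adaptor Fcer1g in mouse, stood at 1.23, 1.82, 0.715 and 0.235 CPM in allogeneic mice. Syngeneic mice had 0.646, 0.108, 2.22 and 1.62 CPM, and control libraries had 0 reads. Each of the 8 libraries of transplanted mice held reads of it, from 5 to 81 reads. With pooled reads and the same floor of 3 reads, Cd300ld was at least 56.7-fold higher in allogeneic than in control mice. It was at least 59.8-fold higher in syngeneic than in control mice. The counting error of the transplanted group and the spread between mice are again left out of these bounds. The allogeneic and syngeneic values overlapped throughout, with a log2 fold change of -0.20 ± 1.15 (95% interval -2.65 to 2.25, edgeR adjusted p = 0.944).

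Treml2, a receptor of macrophages, neutrophils and lymphocytes that is not known to use Tyrobp, had 11.9, 15.6, 11.9 and 10.1 CPM in allogeneic mice. It had 3.9, 4.65, 6.41 and 10.6 CPM in syngeneic mice and 6.07, 7.48, 7.07 and 8.14 CPM in control mice. All allogeneic libraries lay above all control libraries, but syngeneic replicate 4 exceeded the lowest allogeneic library. Treml2 rose in allogeneic against syngeneic mice (0.95 ± 0.30, 1.94-fold, edgeR adjusted p = 0.0339) and in allogeneic against control mice (0.78 ± 0.30, edgeR adjusted p = 0.0315). Both calls sat close to the threshold. The first was lost with library totals (0.75) and without any one of syngeneic replicates 1, 2 and 3 or allogeneic replicates 1, 2 and 3 (edgeR adjusted p = 0.0576 to 0.104), and the second with library totals (0.41) and without control replicates 1, 2 or 3 or allogeneic replicate 2 (edgeR adjusted p = 0.0552 to 0.0987). Syngeneic against control mice gave -0.17 ± 0.30 (95% interval -0.79 to 0.45, edgeR adjusted p = 0.66).

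Cd300a, the ITIM receptor for phosphatidylserine and phosphatidylethanolamine on dying cells, had 149, 133, 159 and 145 CPM in allogeneic mice and 162, 135, 143 and 170 CPM in syngeneic mice. Control mice had 349, 325, 315 and 269 CPM, and every one of them lay above all 8 libraries of transplanted mice. Cd300a fell in syngeneic against control mice (-1.04 ± 0.09, 2.06-fold lower, edgeR adjusted p = 3.91e-08) and in allogeneic against control mice (-1.10 ± 0.09, edgeR adjusted p = 1.21e-08). Allogeneic and syngeneic libraries overlapped. Their log2 fold change was -0.06 ± 0.09 (95% interval -0.25 to 0.14, edgeR adjusted p = 0.761), an interval that stays clear of the fall seen against control. With library totals it was -0.26 (edgeR adjusted p = 0.0415, where the median of all genes was -0.22), and with the offset for GC content and length it was 0.03.

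Cd300lf, the other ITIM receptor, which binds phosphatidylserine and ceramide, had 29.3, 40.6, 44.2 and 48.4 CPM in allogeneic mice. Syngeneic mice had 6.91, 7.54, 4.27 and 7.73 CPM and control mice 8.32, 11.3, 10.3 and 8.56 CPM. The lowest allogeneic library was well above the highest of the other 8, and the syngeneic libraries all lay below the control libraries, the nearest pair at 7.73 and 8.32 CPM. Cd300lf rose by 2.62 ± 0.22 in allogeneic against syngeneic mice (edgeR adjusted p = 5.91e-08) and by 2.08 ± 0.22 in allogeneic against control mice (edgeR adjusted p = 1.66e-07). In every alternative tried these values lay between 2.41 and 2.75 and between 1.71 and 2.21. The fall in syngeneic against control mice was small (-0.54 ± 0.21, edgeR adjusted p = 0.0422) and was lost in 9 alternatives, among them RLE factors (edgeR adjusted p = 0.0501), limma-voom (limma adjusted p = 0.119) and leaving out control replicates 2 or 3 or syngeneic replicates 1 or 3 (-0.38 to -0.56, edgeR adjusted p = 0.0622 to 0.136).

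**Figure D2:**
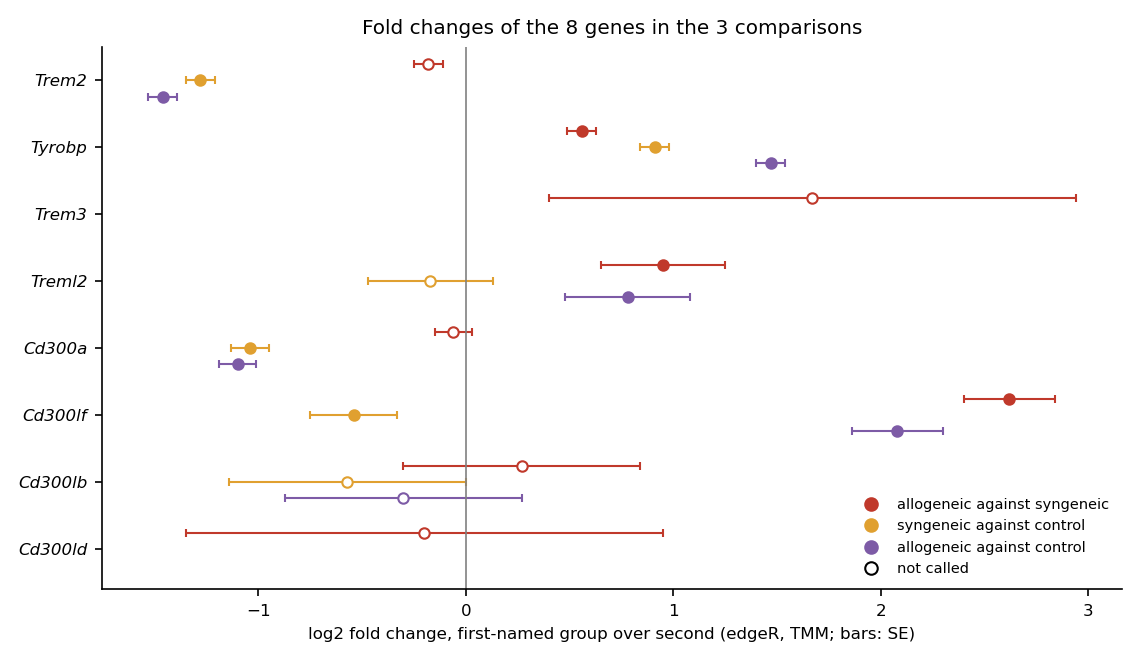
Log2 fold change of each gene (points, with SE bars, edgeR) in allogeneic against syngeneic (red), syngeneic against control (orange) and allogeneic against control mice (purple); filled points passed the adjusted p threshold of 0.05 and open points did not. Cd300lf and Treml2 lie right of 0 in both comparisons of allogeneic mice, Trem2 and Cd300a lie left of 0 in both comparisons with control; Trem3 and Cd300ld against control are not drawn, since their control libraries held 0 reads.

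Reads of the 2 ITIM receptors lay closer together in allogeneic libraries than elsewhere. Cd300a reads were 5.1, 3.27, 3.6 and 3 times the Cd300lf reads in allogeneic mice. The ratio was 23.4, 17.9, 33.5 and 22 in syngeneic mice and 41.9, 28.9, 30.7 and 31.4 in control mice. All 4 allogeneic ratios lay far below the other 8, and the syngeneic and control ratios overlapped. The mean log2 ratio differed by -2.68 between allogeneic and syngeneic mice (6.43-fold lower) and by -3.16 between allogeneic and control mice (8.97-fold lower), each with two-sided exact permutation p = 0.0286 and adjusted p = 0.0381. Syngeneic against control mice gave -0.48 (exact permutation p = 0.114, adjusted p = 0.137).

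Neither activating CD300 receptor passed the test between allogeneic and syngeneic mice, and their share relative to Cd300lf was compared in the same way. The log2 ratio of Cd300lb to Cd300lf reads averaged -3.8 ± 0.41 in allogeneic, -1.7 ± 0.92 in syngeneic and -1.46 ± 0.7 in control mice (SD, n = 4 each). It was lower by 2.1 in allogeneic than in syngeneic mice (4.28-fold) and by 2.34 than in control mice (5.06-fold), each with exact permutation p = 0.0286 and adjusted p = 0.0381. The first call was lost when any one allogeneic library was left out (exact permutation, adjusted p = 0.0762). Syngeneic against control mice gave -0.24 (exact permutation p = 0.657, adjusted p = 0.657). For Cd300ld to Cd300lf, allogeneic libraries averaged -5.64 ± 1.47 and syngeneic libraries -3.14 ± 2.15, with overlap (difference -2.49, exact permutation p = 0.143, adjusted p = 0.156). Against control the same ratio has no usable test, because control libraries held 0 reads of Cd300ld.

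**Figure D3:**
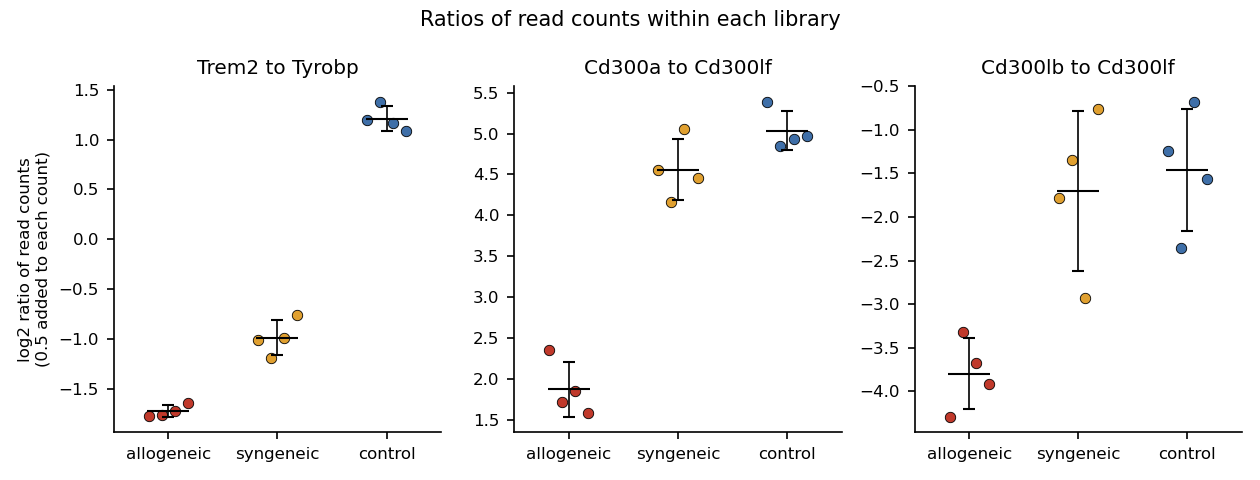
Log2 ratio of read counts of 2 genes within each library (points), with group mean and SD (bars, n = 4), for Trem2 to Tyrobp, Cd300a to Cd300lf and Cd300lb to Cd300lf; 0.5 was added to each count. Allogeneic points lie lowest in each panel and overlap no other group.

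Per kilobase of transcript, which allows levels to be compared between genes, Tyrobp led the 8 genes in allogeneic mice with 4370 ± 113 CPM per kb and in syngeneic mice with 2970 ± 170 CPM per kb, and Trem2 came next with 687 ± 30.4 and 777 ± 62.8 CPM per kb in those groups. In control mice Trem2, at 1890 ± 171 CPM per kb, and Tyrobp, at 1580 ± 142 CPM per kb, overlapped. Cd300a followed in each group, with 31.6 ± 2.34 CPM per kb in allogeneic, 32.8 ± 3.48 in syngeneic and 67.7 ± 7.26 in control mice, apart from both neighbours in the order. Cd300lf came next in each, at 21.6 ± 4.36 CPM per kb in allogeneic, 3.51 ± 0.849 in syngeneic and 5.09 ± 0.743 in control mice. It did not overlap Cd300a, and in syngeneic mice it overlapped the next gene, Treml2. Treml2, Trem3, Cd300lb and Cd300ld made up the low end, each at 3.1 CPM per kb or less in every group, and neighbours among them overlapped in allogeneic and syngeneic mice.

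Each gene was also set against all other tested genes by the root mean square (RMS) difference of centred log2 CPM over the 12 libraries. For Tyrobp the nearest were Atp5o at 0.05, Tma7 at 0.06 and Atp5g2 at 0.07. Trem2 was nearest to Irf5 at 0.08, Dpf2 at 0.08 and Scamp2 at 0.10, and Cd300a to Bco2 at 0.10, Rnf5 at 0.11 and Wash1 at 0.11. Cd300lf had Irf1 at 0.36, H2-T10 at 0.36 and Itgax at 0.38, where Irf1 is a transcription factor induced by interferons, H2-T10 a non-classical MHC class I gene and Itgax the integrin CD11c. Treml2 had Rab20 at 0.27, Gpr84 at 0.29 and Pla2g12a at 0.30. The low genes had no neighbour as close, the nearest being Nmnat3 at 0.45 for Cd300lb, Cyb561 at 0.62 for Cd300ld and Ifnb1 at 0.89 for Trem3. Genes high in all libraries have less counting noise, so these distances are not comparable between high and low genes.

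Other genes of the TREM and CD300 families were sparse. Of 16 listed, 7 were in the table and 5 were tested. In allogeneic against syngeneic mice 0 passed. In syngeneic against control mice 2 rose and 1 fell, and in allogeneic against control mice 3 rose and 1 fell. The shares called were 0%, 60% and 80%, beside 16.5%, 52.1% and 57.3% of all genes. Trem1, an amplifier of inflammation on neutrophils and monocytes that pairs with Tyrobp, had 1.01, 0.107, 2.29 and 1.97 CPM in allogeneic mice, 0.29, 0.991, 0 and 0 CPM in syngeneic mice and 0 reads in control mice. With pooled reads, Trem1 was at least 74.1-fold higher in allogeneic and at least 19.7-fold higher in syngeneic than in control mice. These bounds leave out the counting error of the transplanted group and the spread between mice, and 2 syngeneic libraries held all the syngeneic reads. The call in syngeneic against control mice was lost without syngeneic replicate 2, with limma-voom and with the replicate number as a block. Trem1, Cd300lh and Treml1 passed the filter only through the groups where they were high. No p against the low group is therefore given for them, and their calls above carry no weight. They make up all the calls of this list in syngeneic against control mice. In allogeneic against control mice the call of Treml4 alone remains. Cd300lh, listed by RefSeq as a synonym of Cd300ld3, stood at 1.2 to 1.52 CPM in allogeneic, 1.12 to 1.57 CPM in syngeneic and 0.133 to 0.198 CPM in control mice, with a log2 fold change against control of 3.01 ± 0.84 in allogeneic and 3.02 ± 0.84 in syngeneic mice. Treml4, a receptor of monocytes and dendritic cells, averaged 10.5 ± 3.55 CPM in allogeneic, 5.288 ± 2.31 CPM in syngeneic and 4.578 ± 0.397 CPM in control mice. It rose in allogeneic against control mice (1.20 ± 0.36, edgeR adjusted p = 0.00834; not with library totals), while allogeneic against syngeneic mice gave 0.99 ± 0.36 (edgeR adjusted p = 0.0684; past the threshold with DESeq2, limma-voom or without syngeneic replicate 2 or allogeneic replicate 4, adjusted p = 0.0333 to 0.0445). Treml1, the platelet receptor TLT-1, averaged 0.1317 ± 0.21 CPM in allogeneic, 0.1185 ± 0.208 CPM in syngeneic and 1.877 ± 0.806 CPM in control mice; its calls against control were lost in 11 alternatives in allogeneic and 9 in syngeneic mice. Cd300c, at 0 to 0.794 CPM in allogeneic, 0 to 0.575 CPM in syngeneic and 0.196 to 1.46 CPM in control mice, passed in no comparison; that symbol may stand for the gene now called Cd300c2. Cd300e and Cd300lg were too low to test. The genes of each family lie close together on a chromosome and resemble each other in sequence, and the labels do not say how reads shared between them were counted, so the low counts of Trem1, Trem3, Cd300lb, Cd300ld, Cd300lh and Cd300c are uncertain in that respect.

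Other receptors listed with Tyrobp, not all of which pair with it directly, rose with it more often than they fell. Of 10 tested, 5 rose and 1 fell in allogeneic against syngeneic mice (median 0.84, against -0.01 for all tested genes), 5 rose and 1 fell in syngeneic against control mice (median 1.15, against -0.03), and 7 rose and 2 fell in allogeneic against control mice (median 2.86 with the gene without control reads at its bound, against -0.07). The shares called were 60%, 60% and 90%, where all tested genes gave 16.5%, 52.1% and 57.3%. The last share counts Sirpb1a, which had 0 control reads and so passed the filter only through libraries of transplanted mice. Its allogeneic and control libraries overlapped, and that call is given no weight. Klrk1, an NK cell receptor that also leads the NK cell markers in allogeneic mice, is among those that rose in allogeneic mice (27.1 CPM, against 1.14 CPM in syngeneic and 0.385 CPM in control mice). The 8 NK markers summed to 22.9 to 38.3 CPM in allogeneic, 4.04 to 4.65 in syngeneic and 6.05 to 9.17 in control mice. The leading marker was Klrk1 in allogeneic mice but Klrd1 in syngeneic and control mice. Without it the sums were 2.41 to 3.8, 0 to 1.79 and 0 to 1.57 CPM. The allogeneic sum is not comparable with the others, since a different gene was left out. Klrd1 ran opposite to Klrk1, at 1.59, 3.13 and 7.16 CPM in allogeneic, syngeneic and control mice. The part of NK cells in these results was not tested. Clec5a, a C-type lectin that detects viral and bacterial glycans, averaged 455 CPM in allogeneic, 263.1 CPM in syngeneic and 156.6 CPM in control mice. Pilrb1 and Pilrb2, activating partners of the inhibitory receptor Pilra, reached 29.5 and 27.2 CPM in allogeneic mice, 3.35 and 4.83 CPM in syngeneic mice and 0.316 and 0.876 CPM in control mice. Cd200r4, an activating relative of the CD200 receptor, averaged 12.2 CPM in allogeneic, 1.78 CPM in syngeneic and 0.609 CPM in control mice; its call in syngeneic against control mice was lost with limma-voom, with the offset for GC content and length and with only the compared groups. For each of these 4 genes all libraries of one group lay above all those of the next, in the order allogeneic, syngeneic, control. The 4 were named for the smallest p in allogeneic against syngeneic mice, so their separation there follows from that choice. Groups did not overlap for 20.7% of all genes there and for 50.0% in syngeneic against control mice. Itgb3 of the same list fell in allogeneic against syngeneic mice (-1.11 ± 0.21, edgeR adjusted p = 0.000904), with all allogeneic libraries below. Both other adaptors tested rose in all 3 comparisons. Fcer1g, which carries an ITAM, averaged 2643 CPM in allogeneic, 1940 CPM in syngeneic and 968 CPM in control mice. Hcst (DAP10), which signals through PI3-kinase and also pairs with Trem2, averaged 23.2, 9.25 and 5.04 CPM in the same order. With the offset for GC content and length, the Fcer1g difference between allogeneic and syngeneic mice was 0.05 (edgeR adjusted p = 0.592), where the TMM fit gave 0.45 ± 0.06 (edgeR adjusted p = 2.15e-05).

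Downstream of the ITAM, kinases and effectors moved both ways. Of 24 tested, 5 rose and 2 fell in allogeneic against syngeneic mice (median -0.08), 6 rose and 11 fell in syngeneic against control mice (median -0.51) and 8 rose and 10 fell in allogeneic against control mice (median -0.27). These are 29.2%, 70.8% and 75% of the list, beside 16.5%, 52.1% and 57.3% of all genes. They count a fall of Lat in syngeneic against control mice, which is given no weight because Lat had 0 syngeneic reads. Vav3, at 0.15 CPM in control mice, passed the filter only through libraries of transplanted mice. Its counted rises in both comparisons with control are given no weight either. Lat2 (NTAL), a scaffold that Syk phosphorylates, averaged 335.4 CPM in allogeneic, 212.9 CPM in syngeneic and 160 CPM in control mice and rose in all 3 comparisons. Nfatc1, a calcium-driven transcription factor, fell in all 3 with 37.2, 68.2 and 114.5 CPM in allogeneic, syngeneic and control mice; with the offset, syngeneic against control mice gave -0.25 (edgeR adjusted p = 0.135). Src averaged 22 CPM in allogeneic, 9.25 CPM in syngeneic and 16.1 CPM in control mice, rising by 1.25 ± 0.22 in allogeneic against syngeneic mice (edgeR adjusted p = 0.000517) and falling by 0.80 in syngeneic against control mice (log2 fold change 0.02 with the offset for GC content and length).

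Phosphatases and other inhibitors act on ITIM and ITAM signals. Among 10 tested, 0 rose and 3 fell in allogeneic against syngeneic mice (median -0.20), 1 rose and 5 fell in syngeneic against control mice (median -0.37) and 1 rose and 6 fell in allogeneic against control mice (median -0.47). The shares called, 30%, 60% and 70%, stand beside 16.5%, 52.1% and 57.3% of all genes, so those against control are near the background. Inpp5d (SHIP1), the lipid phosphatase that restrains Tyrobp signalling, averaged 374.8 CPM in allogeneic, 489.3 CPM in syngeneic and 811.8 CPM in control mice and fell in each comparison (-0.38 ± 0.08 in allogeneic against syngeneic mice, edgeR adjusted p = 0.00186). The kinase Csk, which holds Src kinases inactive, averaged 79.5, 101.1 and 144.3 CPM in allogeneic, syngeneic and control mice and fell in each comparison, but with the offset for GC content and length its values against control were 0.12 in allogeneic and 0.32 in syngeneic mice. Its call in allogeneic against syngeneic mice was lost with the offset and without allogeneic replicates 2 or 3 (edgeR adjusted p = 0.0539 to 0.198). Dok3, an adaptor for inhibitors, averaged 12.4 CPM in allogeneic, 15 CPM in syngeneic and 87.5 CPM in control mice and fell in both comparisons with control. Ubash3b, a phosphatase acting on Syk, averaged 89.2 CPM in allogeneic, 113 CPM in syngeneic and 110.3 CPM in control mice and fell slightly in both comparisons of allogeneic mice, with overlap between the groups. The fall against syngeneic mice (-0.34 ± 0.11, edgeR adjusted p = 0.0404) was lost with the offset and without syngeneic replicates 1 or 3 or allogeneic replicates 1, 2 or 3 (adjusted p up to 0.276). That against control mice (-0.31 ± 0.11, edgeR adjusted p = 0.0242) was lost with the offset and without control replicates 3 or 4 or allogeneic replicates 2 or 3 (adjusted p up to 0.391).

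Of 6 genes tested for TREM2 ligands and its shedding, 3 rose and 1 fell in allogeneic against syngeneic mice (median 0.32), 3 rose and 0 fell in syngeneic against control mice (median 0.55), and 6 rose and 0 fell in allogeneic against control mice (median 1.51). The shares called were 66.7%, 50% and 100%, beside 16.5%, 52.1% and 57.3% of all genes, and they include Bsg, whose place in the list is unsure. Adam10, a protease that cuts TREM2 from the cell surface, averaged 908.6 CPM in allogeneic, 655.7 CPM in syngeneic and 327.4 CPM in control mice, with no overlap between groups. Apoe, a lipoprotein ligand, averaged 6894 CPM in allogeneic, 2346 CPM in syngeneic and 2352 CPM in control mice, rising by 1.55 ± 0.17 in allogeneic against syngeneic mice (edgeR adjusted p = 1.81e-05). Clu, another lipoprotein ligand, averaged 24.6 CPM in allogeneic, 48.7 CPM in syngeneic and 5.89 CPM in control mice; its fall in allogeneic against syngeneic mice was lost with no filter on low counts and without syngeneic replicates 1 or 3 or allogeneic replicates 1, 3 or 4 (edgeR adjusted p = 0.0576 to 0.0979). Lgals3 (galectin-3), reported to bind TREM2, averaged 33, 9.35 and 3.36 CPM in the same order.

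Of 19 genes that mouse microglia switch on in a TREM2-dependent way around amyloid plaques, 14 rose and 2 fell in allogeneic against syngeneic mice (median 1.39), 13 rose and 1 fell in syngeneic against control mice (median 1.06) and 16 rose and 1 fell in allogeneic against control mice (median 2.3). These are 84.2%, 73.7% and 89.5% of the list, beside 16.5%, 52.1% and 57.3% of all genes. Gpnmb had 0 syngeneic reads, so its counted rise against syngeneic mice and fall in syngeneic against control mice are given no weight. Apoe and Lgals3 are in this list as well. Spp1 (osteopontin) averaged 477.8 CPM in allogeneic, 102.4 CPM in syngeneic and 9.85 CPM in control mice, and Clec7a (dectin-1) averaged 376.7, 63.5 and 24.9 CPM. Lilrb4a, an ITIM receptor, averaged 175.1 CPM in allogeneic, 21.2 CPM in syngeneic and 6.12 CPM in control mice. Itgax was high in allogeneic mice, with 108.4 CPM against 16.8 CPM in syngeneic and 22 CPM in control mice, rising by 2.69 ± 0.18 in allogeneic against syngeneic mice (edgeR adjusted p = 3.73e-09). Most of these 19 genes thus rose in both transplanted groups, whose libraries all held less Trem2 RNA than any control library.

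**Figure D4:**
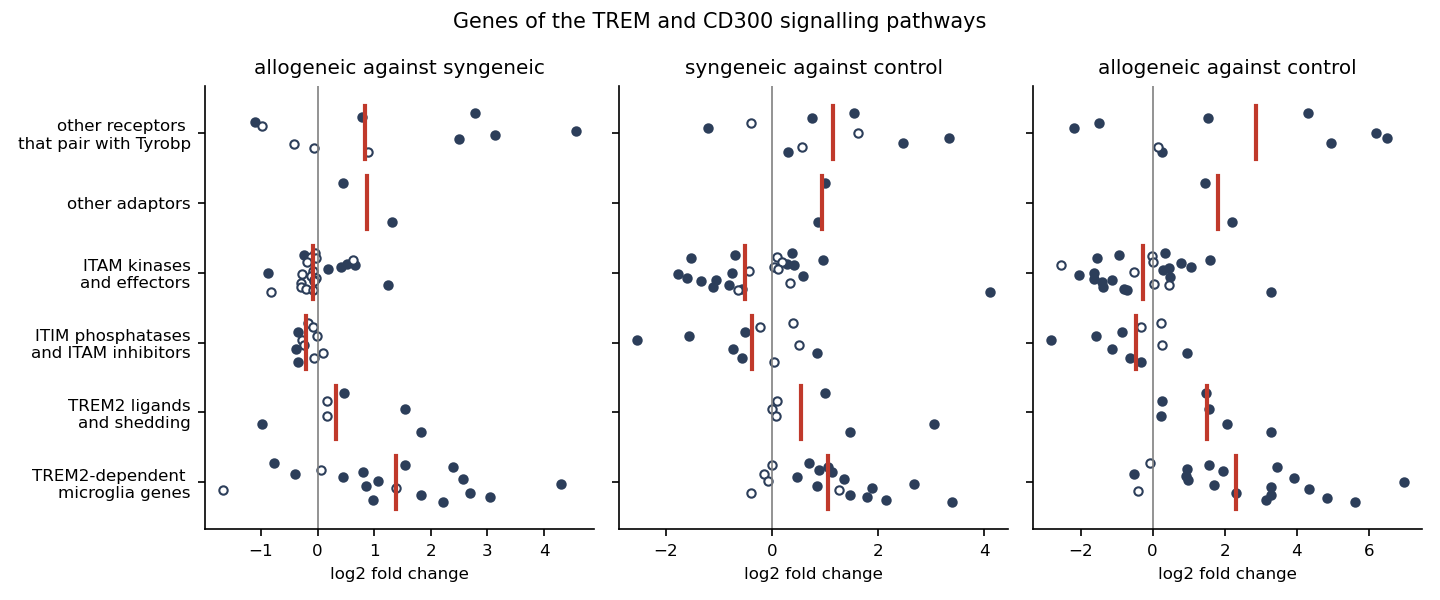
Log2 fold change (linear axis in log2 units, first-named group over the second) of the tested genes of 6 lists in the 3 comparisons; filled points passed the adjusted p threshold of 0.05, open points did not, and red bars are list medians. Genes with 0 reads in a whole group are left out of the points. The lists labelled as receptors that pair with Tyrobp and as TREM2-dependent genes have positive medians throughout. The kinases and the inhibitors have negative ones.

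Markers of other myeloid cells were measured beside these genes. Of 12 monocyte markers, Treml4 among them, 10 had reads in allogeneic, 8 in syngeneic and 11 in control mice. They summed to 294.5 to 472.8 CPM in allogeneic, 43.4 to 80.6 CPM in syngeneic and 22.9 to 26.8 CPM in control libraries, with F10 at 0 in allogeneic mice, F10, Vcan and Chil3 at 0 in syngeneic mice, and Ear2 at 0 in control mice. Ms4a4c led the sum in allogeneic mice at 229 CPM and in syngeneic mice at 30.1 CPM, and Ccr2 in control mice at 9.48 CPM. Without the leading gene the sum was 102 to 151 CPM in allogeneic and 19.9 to 42.1 CPM in syngeneic libraries. In control libraries it was 14.4 to 15.9 CPM, with a different gene left out, so it is not comparable with the others. Of 7 monocyte markers tested, 3 rose and 0 fell in allogeneic against syngeneic, 4 rose and 0 fell in syngeneic against control, and 5 rose and 1 fell in allogeneic against control mice. The 11 markers of macrophages that engraft from bone marrow summed to 4661 to 5458 CPM in allogeneic, 1766 to 1939 CPM in syngeneic and 1517 to 1808 CPM in control mice, with none at 0. In allogeneic against syngeneic mice 8 of the 11 rose and 2 fell (16.5% of all genes called). Against control, 7 rose and 2 fell in syngeneic (52.1%) and 9 rose and 2 fell in allogeneic mice (57.3%). The syngeneic and control sums overlapped, and only the allogeneic sums stood apart. Tyrobp, Cd300lf and Treml2 also had their highest means in allogeneic mice. The monocyte marker Ccr2 ran the other way, at 3.996, 8.01 and 9.482 CPM in allogeneic, syngeneic and control mice. The part of monocytes or engrafted macrophages in these results was not tested. Of 13 neutrophil markers in the table, 8 had reads in each group, with Mpo and Stfa2l1 at 0 throughout. Those other than Csf3r, which microglia of every group held, summed to 2.22 to 7.21 CPM in allogeneic, 0.646 to 8.34 CPM in syngeneic and 0.159 to 28.7 CPM in control mice. Choroid plexus markers were higher after transplant, at 338.5 to 604.5 CPM in allogeneic and 1091 to 1927 CPM in syngeneic mice against 12.9 to 96.7 CPM in control mice. The mean of Clu had the same order of groups, and the part of choroid plexus RNA in its level was not tested.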

How the data were processed

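RNA-seq of FACS-sorted microglia from 12 mice in 3 groups was analysed. Total RNA (Picopure kit) went into Illumina libraries, per the labels' protocols. The submitters' processing notes name Trimmomatic 0.36, STAR 2.5.2b and the mouse build mm9. The deposited table holds raw read counts per gene symbol, and neither labels nor notes name the counting tool, the annotation or the strand setting. CPM and fold changes come from these counts (edgeR 4.0.16 under R 4.3.3). Libraries were scaled by TMM, and filterByExpr (minimum count 10) kept 12695 of the 18018 genes that had reads. A robust quasi-likelihood model of group means, fitted to the 12 libraries at once, gave the 3 contrasts, with Benjamini-Hochberg adjustment and a call below 0.05. The fit was also run on simulated counts in which few genes changed, as many up as down. That run cannot test the scaling of libraries where many genes change. Within groups, libraries correlated at Spearman 0.975 to 0.984 (log2 CPM). Read ratios were compared by two-sided exact permutation of 4 against 4 libraries. Transcript lengths and GC content are those of GENCODE transcripts matched to curated RefSeq mRNAs on GRCm38. Mice are separate animals; replicate numbers did not pair them, and no batch is given in the labels.

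The 8 genes and all lists were chosen with earlier results of these data known. Named list genes are up to 4 per list with the smallest p in allogeneic against syngeneic mice, and every other TREM or CD300 gene with a count. Some genes that these choices give are not reported here by name, and counts and sums of lists include them. P2ry12, Ms4a4c, Ccr2, Csf3r, Klrk1, Klrd1, Itgb3, Sirpb1a, Lat, Vav3, Gpnmb, Bsg and the markers at 0 were named after their values were seen. Alternatives were RLE factors, library totals, DESeq2 1.42.0, limma-voom (limma 3.58.1), no filter, at least 1 CPM in 4 libraries, only the compared groups, the replicate number as a block and each library left out. An offset for the GC content and length of transcripts (loess, span 0.3) was added after seeing the data.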

Additional observations from a re-analysis of the deposited data

Results flagged for a closer look

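Tyrobp in syngeneic mice had 1 library apart from the rest of its group. Syngeneic replicate 4 stood at 1530 CPM, where the other syngeneic libraries lay between 1710 and 1740 CPM. The gap was 0.848 of the group's range, past Dixon's 95% critical value for 4 samples. It was 1 of 36 groups of 4 libraries examined (the 8 genes and 4 read ratios in each of the 3 groups), and chance gives about 1 in 20. Without that library, Tyrobp rose by 0.50 in allogeneic against syngeneic mice and by 0.96 in syngeneic against control mice, on the same side of the threshold.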

How the results depend on the processing

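Over the alternatives, the 24 member results (8 genes in 3 comparisons) gave 405 values, of which 371 kept the direction and the side of the threshold, 21 lost the call, 5 gained one and 8 turned sign; no turn was of a called member. Directions held in all alternatives for Tyrobp, Trem2, Trem3 and Cd300lf. For genes called lower among the 8 in allogeneic against syngeneic mice, the count was 2 with library totals and 1 each with the GC and length offset, with only the compared groups and without syngeneic replicate 2. With only the compared groups, genes called higher in syngeneic against control mice numbered 1, since Trem3 and Cd300ld did not pass the filter on low counts there (12139 genes tested). With library totals, 844 of all genes were called higher and 2108 lower in allogeneic against syngeneic mice (28.6% of calls higher, 61.4% with TMM). The share was 40.7% against 50.8% in syngeneic against control mice and 31.8% against 49.2% in allogeneic against control mice, and the all-gene median moved to -0.22, -0.20 and -0.44; the cause was not tested.

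Same-numbered libraries of different groups correlated at -0.01 to 0.03 in their deviations, and 2 of 12 libraries correlated best with their own number, so the numbers do not pair the mice. The replicate block changed no member call. A sign-flip test of the ratios with the replicate block cannot go below p = 0.125 with 4 pairs (adjusted 0.167, exact), and its differences were -0.74, -2.2 and -2.94 for Trem2 to Tyrobp, -2.68 and -3.16 for Cd300a to Cd300lf, -2.1 and -2.34 for Cd300lb to Cd300lf, and 6.49 and 4 for Cd300ld to Cd300lf. Leaving out 1 library gave, for Cd300ld to Cd300lf, -3.44 to -1.76 (-3.44 without syngeneic replicate 2) in allogeneic against syngeneic, 5.75 to 7.44 in syngeneic against control and 3.61 to 4.65 in allogeneic against control mice, where it has no usable test. It gave -2.51 to -1.78 for Cd300lb to Cd300lf in allogeneic against syngeneic mice, -0.56 to 0.17 for that ratio in syngeneic against control mice (turned without control or syngeneic replicate 3) and -0.65 to -0.35 for Cd300a to Cd300lf there.

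Signs that turned were of genes not called, except Csk and Src with the offset for GC content and length. In allogeneic against syngeneic mice, Cd300a was 0.03 with the offset, Cd300ld 0.25 with voom, Treml1 -0.06 with totals, Cd300c -0.18 with totals, -0.24 with voom, -0.37 with the offset and -0.90 with the block, and Cd300lh 0.01 with RLE factors, 0.01 with DESeq2 and 0.00 with the block. In syngeneic against control mice, Treml2 was 0.11, Csk 0.32, Src 0.02 and Apoe 0.33 with the offset, Ubash3b -0.14 with totals, and Apoe 0.02 with RLE factors and with DESeq2. In allogeneic against control mice, Csk was 0.12 with the offset. With 1 library left out, the signs that turned gave ranges of Cd300lb -0.06 to 0.71, Cd300ld -0.66 to 0.34, Treml1 -1.94 to 2.84, Cd300c -1.73 to 0.78, Cd300lh -0.09 to 0.05, Dok3 -0.38 to 0.01 in allogeneic against syngeneic mice, of Treml2 -0.52 to 0.01, Treml4 -0.03 to 0.47, Ubash3b -0.04 to 0.09, Apoe -0.19 to 0.07 in syngeneic against control mice, of Cd300lb -0.50 to 0.08 in allogeneic against control mice.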
